A study of Mus musculus with 16 samples.

Results

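Heat-shock chaperones were followed as 8 genes, taken by symbol from the 22609 genes counted in each of 16 RNA-seq libraries of sensory ganglia. The stress-inducible set was Hspa1a, Hspa1b, Dnajb1 and Hsph1, the constitutive set was Hspa8 and Hspa5, and Hspb1 and Hsp90aa1 were kept apart because they are made at rest and also rise with heat. All 8 symbols were present in all 16 tables and passed the filter on low counts in each comparison. The libraries came from the trigeminal ganglion (TG), the joined nodose and jugular ganglia (NG/JG), and the dorsal root ganglia (DRG) of levels L3-L5 and T10-L1, with 4 libraries per ganglion. The donors were naive C57BL/6J mice labelled as male, in which Pirt-cre switched on TdTomato from the Rosa26 locus. All 4 groups thus carried the same reporter, and their labels differed only by ganglion. The study reports that the share of positive cells among live cells varied between ganglia and between samples. Ganglion and sorting yield therefore cannot be told apart. Per the study's methods, ganglia were digested with liberase and dispase, dispersed by pipette and sorted repeatedly for TdTomato-positive cells before RNA was isolated. The levels below are those of cells after this treatment, whose part in them was not tested. How many animals were pooled in a library was not given in the sources used here. Because nothing in the labels says that libraries of one ganglion came from separate animals, the p-values measure the spread between these libraries only.

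Chaperones are proteins that bind unfolded or partly folded proteins and return them to a native state or hand them on for degradation. The inducible members are transcribed at low level in resting cells and strongly when heat-shock factor 1 binds heat-shock elements in their promoters, as it does after heat, injury or other stress that unfolds proteins. The constitutive members serve folding in unstressed cells, Hspa8 in the cytosol and Hspa5 in the endoplasmic reticulum (ER), where the unfolded protein response raises Hspa5.

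The libraries differed in ways that the ganglion does not describe, and these touch the results. Reads on genes ranged from 4735624 to 13333318 per library, and 3 counts, taken as the floor, were worth 0.225 to 0.633 CPM (counts divided by the library's total over genes and rescaled to a common depth). CPM are given without the TMM factors by which the fits scale libraries. Over all libraries these factors were 0.769 to 0.820 in TG libraries 2 to 4, 0.945 in TG library 1 and 0.893 to 1.138 in the other ganglia. Dividing CPM by them raises TG libraries 2 to 4 relative to the rest. The libraries are labelled as neurons, yet 7 satellite glia markers summed to between 13216 and 65557 CPM and 6 measured Schwann cell markers to between 8087 and 54483 CPM, while 15 sensory neuron markers summed to between 1352 and 15932 CPM. In TG library 1 the neuron markers were at the lowest of these sums, and its counts lay far from TG libraries 2 to 4, with a chi-square of 229 to 249.5 per gene against 31.6 to 35.3 among those 3, although pairs of NG/JG libraries reached 187 to 388. L3-L5 DRG library 4 had the highest share of uniquely aligned reads outside genes, 66.6% against 29.6% to 51.5% in the other libraries. Xist was counted 1279 to 8362 times in every library and the 13 genes of chromosome Y had 0 reads in all, which goes against the label male in all 4 groups.

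Promoter sequences are given first for the members whose window held a searched motif. RefSeq promoters on GRCm38.p6, from 250 bases before to 50 after each start, matched 6 of the 8 members (8 promoters), and Hspa8 and Hsp90aa1 had no entry. Positions count from the start site, with -1 the base before it, and capitals mark the motif. Each of the first 3 windows runs from -130 to -71 and holds the two-unit element GAANNTTC, the inverted repeat that heat-shock factors bind. These are Hspa1a at chr17:34972227-34972286 on the minus strand, Hspa1b at chr17:34959309-34959368 on the minus strand and Hspb1 at chr5:135887789-135887848 on the plus strand.
Hspa1a: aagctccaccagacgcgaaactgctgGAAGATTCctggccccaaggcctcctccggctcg
Hspa1b: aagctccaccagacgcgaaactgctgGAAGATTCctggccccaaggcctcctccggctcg
Hspb1: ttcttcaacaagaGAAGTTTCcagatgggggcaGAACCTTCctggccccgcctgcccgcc
The Hspa1a and Hspa1b windows are the same base for base, and their full promoters differ at 4 of 300 positions, 3 of them before the start. Hspb1 carries the element at 2 places, starting at -117 and -97, and Hspa1a and Hspa1b at -104.

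The next windows show Hsph1, first from -90 to -31 of its second start (chr5:149636346-149636405, minus strand) with the other two-unit spacing TTCNNGAA, then the only three-unit heat-shock element, with units GAA, TTC and GAA set 2 bases apart and read on the other strand, in the 25 bases at chr5:149636282-149636306 just after that start. Hspa5 is shown from -100 to -31 (chr2:34771990-34772059, plus strand) with the ER stress response element, CCAAT and CCACG set 9 bases apart.
Hsph1, before the start: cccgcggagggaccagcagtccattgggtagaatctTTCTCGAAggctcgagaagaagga
Hsph1, after the start: tgcagaTTCTGGAAAGTTCtcctca
Hspa5: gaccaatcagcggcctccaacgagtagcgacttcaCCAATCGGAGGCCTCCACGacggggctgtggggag
Both strands were searched in 32851 promoters of the same length. GAANNTTC was in 7.86% of them and in 4 of the 6 matched members, and TTCNNGAA was in 8.52% and in Hsph1 alone, where it overlaps the three-unit element after the start. The three-unit element was in 0.603% and, among the members, in Hsph1. The ER stress response element was in 0.119% and in Hspa5 alone. TATAAA was in 13.6% and in no member. No searched motif was in either promoter of Dnajb1, which says only that these letters are not in these windows.

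The inducible members were high in the same few libraries, and those libraries were not all of one ganglion. Hspa1a, the main inducible HSP70, lies on chromosome 17 (35106144-35109069, minus strand, mm9). In NG/JG it was counted at 667, 6078, 604 and 8346 CPM in libraries 1 to 4. In T10-L1 DRG it stood at 1062, 5097, 6382 and 645 CPM. Thus libraries 2 and 4 of NG/JG and libraries 2 and 3 of T10-L1 DRG were high, and the other libraries of the same ganglia did not exceed 1062 CPM. In L3-L5 DRG the values were 751, 655, 294 and 814 CPM, and in TG they were 2185, 206, 754 and 234 CPM. The groups overlap in every pair of ganglia, and the highest of the 16 libraries was 40.6-fold above the lowest.

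**Figure D1:**
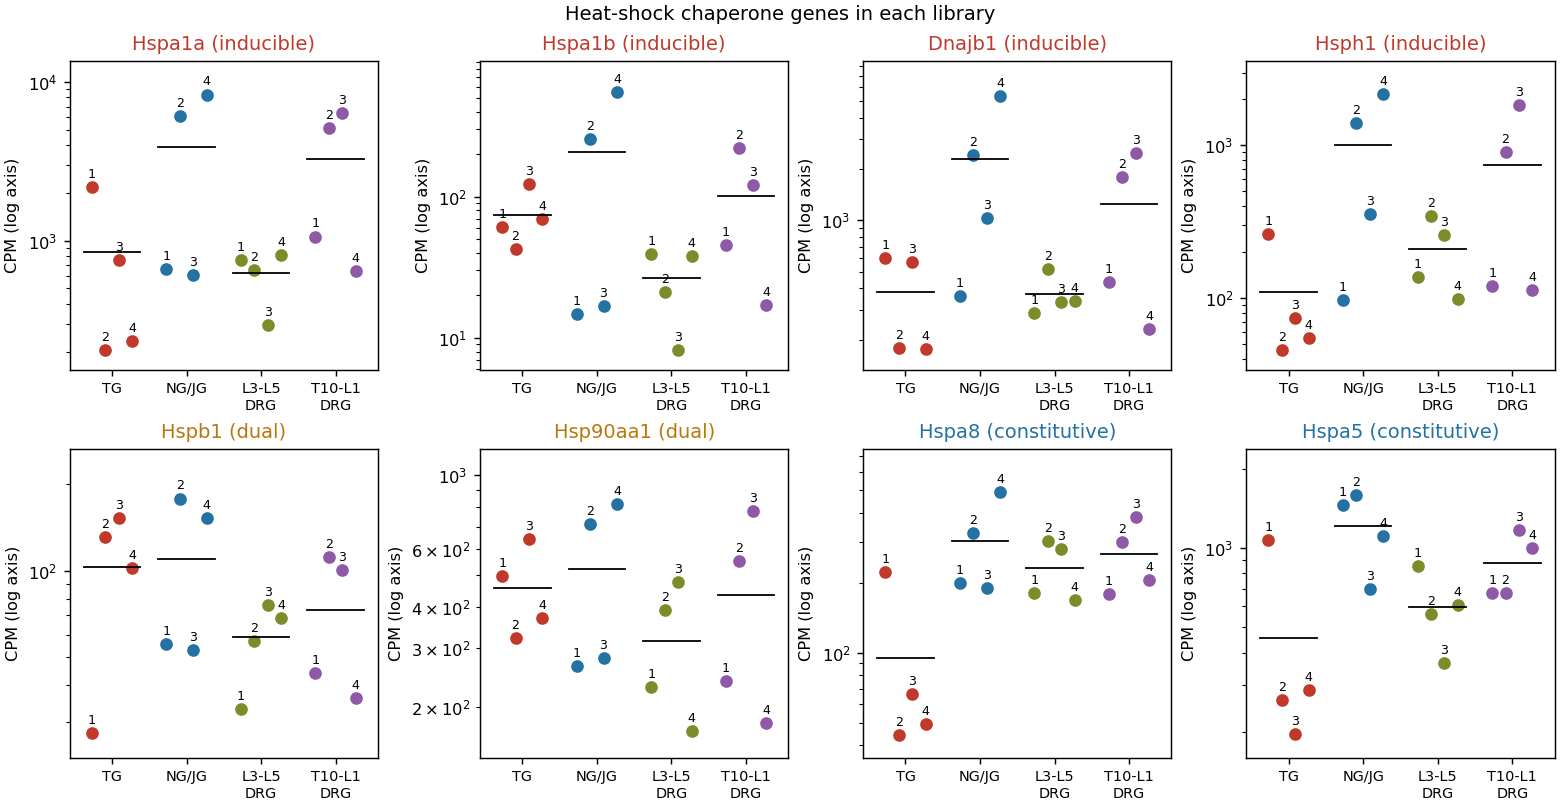
CPM of each member (log axis) in the 4 libraries of each ganglion, with library numbers beside the points and a bar at the mean. Hspa1a, Dnajb1 and Hsph1 were highest in NG/JG libraries 2 and 4 and T10-L1 DRG libraries 2 and 3, while Hspa8 was lowest in TG libraries 2, 3 and 4.

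Dnajb1 encodes the HSP40 that delivers unfolded clients to HSP70 and is itself heat-inducible (chromosome 8, 86132074-86135801, plus strand). Its levels were 360.0, 2409, 1038 and 5348 CPM in NG/JG libraries 1 to 4 and 437, 1801, 2486 and 231 CPM in T10-L1 DRG. L3-L5 DRG gave 288, 519.7, 333 and 336 CPM, and TG gave 599.9, 179, 566 and 176 CPM. The 4 highest libraries were those of Hspa1a, and the fourth of them, at 1801 CPM, stood above the fifth, NG/JG library 3, at 1038 CPM.

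Hsph1 encodes HSP110, which exchanges nucleotide on HSP70 and helps to take aggregates apart (chromosome 5, 150416862-150438951, minus strand). It was counted at 97.4, 1409.7, 356 and 2179 CPM in NG/JG and at 120.3, 909, 1835 and 113 CPM in T10-L1 DRG. In L3-L5 DRG it stood at 138, 343, 259 and 98.8 CPM, and in TG at 263, 45.8, 74.2 and 54.6 CPM. Its 4 highest libraries were again those of Hspa1a, with 909 CPM in the fourth and 356 CPM in the fifth. TG libraries 2 to 4 were the lowest 3 of the 16 in CPM. With the TMM factors, L3-L5 DRG library 4 falls below TG library 3.

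Hspa1b, the near-identical neighbour of Hspa1a on chromosome 17 (35093381-35096183, minus strand), was counted far less. NG/JG gave 14.7, 255.1, 16.7 and 548 CPM, and T10-L1 DRG gave 45.2, 223, 121 and 16.9 CPM. L3-L5 DRG gave 39.3, 21.1, 8.16 and 37.8 CPM, and TG gave 61.3, 42.9, 123 and 69.0 CPM. Of its 4 highest libraries, 3 were shared with Hspa1a. TG library 3, at 122.8 CPM, took the place of T10-L1 DRG library 3, at 121.5 CPM. All 4 TG libraries were above all 4 L3-L5 DRG libraries, the one case among the 48 of member and pair in which the groups did not overlap. Of all genes with a read in these 8 libraries, 10.7% had groups without overlap. In the other pairs this share was 7.32% for TG against NG/JG, 13% for TG against T10-L1 DRG, 5.72% for NG/JG against L3-L5 DRG, 7.31% for NG/JG against T10-L1 DRG and 2.67% between the DRG levels.

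Counts of the paralogs depend on where reads can be placed. A 50-base read, the length sequenced, is unique in the genome at 39.0% of the exon positions of Hspa1a and 37.7% of those of Hspa1b, and 59.4% and 62.1% of their positions are shared with each other. In the 13 libraries other than TG libraries 2 to 4, Hspa1a had 15.2 to 52.5 times the counts of Hspa1b. In TG libraries 2, 3 and 4 the ratio was 4.79, 6.14 and 3.39, below all other libraries, and TG library 1 had 35.6. The split between the paralogs is uncertain, since how the authors' counting treated reads that fit both was not given beyond the alignments that HTSeq set aside as not unique, which numbered between 10073176 and 17618872 per library. Dnajb1, Hsph1 and Hspa5 were unique at 99.3%, 100% and 100% of positions, Hspa8 at 62.7%, Hspb1 at 44.4% and Hsp90aa1 at 43.8%.

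**Figure D2:**
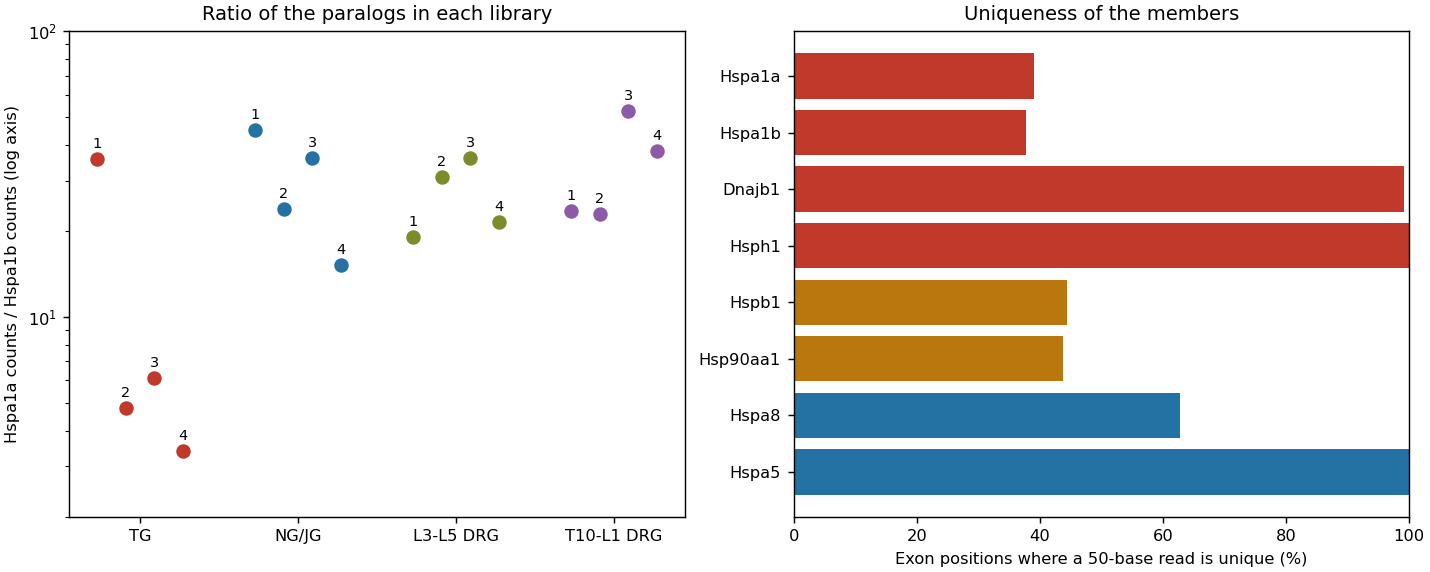
Left, counts of Hspa1a divided by counts of Hspa1b in each library (log axis, numbers give the library). Right, percent of exon positions of each member at which a 50-base read is unique in the mm9 genome. TG libraries 2 to 4 lie between 3.39 and 6.14 and the other 13 libraries between 15.2 and 52.5.

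The members made both at rest and under stress varied less. Hspb1, a small heat-shock protein of sensory and motor neurons that binds unfolded proteins without ATP (chromosome 5, 136363789-136365433, plus strand), ranged from 27.4 CPM in TG library 1 to 178 CPM in NG/JG library 2. Within TG it ran against Hspa8 and Hspa5, at 27.4 CPM in library 1 and at 131, 152 and 102 CPM in libraries 2 to 4. Hsp90aa1, the inducible cytosolic HSP90 (chromosome 12, 111928815-111940938, minus strand), ranged from 169 CPM in L3-L5 DRG library 4 to 821 CPM in NG/JG library 4. Of its 4 highest libraries, 3 were among the 4 of Hspa1a, and for Hspb1 this was 2. The groups overlapped for both genes in every pair of ganglia.

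In CPM, the constitutive members were lowest in TG libraries 2 to 4. Hspa8, the cytosolic HSC70 (chromosome 9, 40609067-40613283, plus strand), was counted at 221, 44.3, 66.1 and 49.3 CPM in TG libraries 1 to 4. It stood at 198, 326, 190.5 and 492 CPM in NG/JG. It stood at 181, 301, 279 and 168 CPM in L3-L5 DRG and at 179, 298, 382 and 206 CPM in T10-L1 DRG. TG libraries 2 to 4 were thus below all 12 libraries of the other ganglia, whose lowest was 168 CPM, while TG library 1 lay among them. Hspa5, the ER HSP70 also called BiP (chromosome 2, 34627490-34632051, plus strand), also had TG libraries 2 to 4 below all other libraries in CPM, with 1075, 264, 196 and 288 CPM in TG libraries 1 to 4. The other 12 libraries ran from 364 CPM in L3-L5 DRG library 3 to 1584 CPM in NG/JG library 2. NG/JG gave 1450.3, 1584, 696 and 1113 CPM, L3-L5 DRG gave 852, 561, 364 and 608 CPM, and T10-L1 DRG gave 672, 675, 1172 and 997 CPM. With the TMM factors, TG libraries 2 to 4 stay lowest for Hspa8. For Hspa5 they do not, since L3-L5 DRG library 3 then falls below TG library 4. The 7 satellite glia markers, all above 0 in every ganglion, also set TG libraries 2 to 4 apart. They summed to 56090, 65557 and 62990 CPM in TG libraries 2 to 4 and to 33846 CPM in TG library 1, with 30089 to 45855 CPM in NG/JG, 13216 to 31965 CPM in L3-L5 DRG and 20001 to 30889 CPM in T10-L1 DRG. The part of these markers in the levels of Hspa8 and Hspa5 was not tested.

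Per kilobase of exon, Hspa1a was the most abundant member and Hspa1b the least. Mean RPKM (CPM divided by exon length in kilobases) over the 16 libraries was 743 ± 914 (SD) for Hspa1a, 433 ± 556 for Dnajb1, 224 ± 119 for Hspa5, 109.99 ± 54.6 for Hsp90aa1, 83.5 ± 46.1 for Hspb1, 73.6 ± 97.6 for Hsph1, 53.8 ± 29.0 for Hspa8 and 36.6 ± 49.8 for Hspa1b. The SD exceeded the mean for all 4 inducible members and for no other. When length was taken as the unique read positions alone, Hspa1a rose to 1937 and Hspa1b to 98.96 RPKM. Hspa1b then stood above Hspa8 (87.9) and Hsph1 (84.2), so the order of the lowest members depends on this choice.

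The mean levels of all members but Hspb1 and Hsp90aa1 had NG/JG first, T10-L1 DRG second and TG and L3-L5 DRG behind. For Hspa1a the means were 3924 ± 3908 (SD, n = 4) CPM in NG/JG, 3297 ± 2874 in T10-L1 DRG, 845 ± 929 in TG and 629 ± 232 in L3-L5 DRG. For Dnajb1 they were 2289 ± 2211, 1239 ± 1084, 380.2 ± 235 and 369 ± 103 CPM in that order. For Hsph1 they were 1011 ± 964 in NG/JG, 744 ± 817 in T10-L1 DRG, 209.6 ± 112 in L3-L5 DRG and 109.5 ± 103 CPM in TG. For Hspa5 they were 1211 ± 397 in NG/JG, 879 ± 248 in T10-L1 DRG, 596 ± 201 in L3-L5 DRG and 456 ± 415 CPM in TG. For Hspa1b they were 209 ± 253 in NG/JG, 102 ± 92.0 in T10-L1 DRG, 74.0 ± 34.4 in TG and 26.6 ± 14.8 CPM in L3-L5 DRG. For Hspa8 they were 302 ± 141 in NG/JG, 266 ± 92.5 in T10-L1 DRG, 232 ± 67.7 in L3-L5 DRG and 95.3 ± 84.5 CPM in TG. The ranges of neighbouring ganglia in these orders overlapped, except those of TG and L3-L5 DRG for Hspa1b. In bulk RNA, fewer cells that express a gene and less RNA per cell cannot be told apart.

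Pooled over the 4 ganglia, the inducible members spread more within a ganglion than the other 4, although not in each ganglion. On log2(CPM + 1) after TMM scaling, the pooled SD was 1.54 for Hspa1a, 1.65 for Hspa1b, 1.27 for Dnajb1 and 1.58 for Hsph1, with a median of 1.26 over 14236 genes. It was 0.90 for Hspb1, 0.78 for Hsp90aa1, 0.68 for Hspa8 and 0.65 for Hspa5. The share of genes with a smaller SD was 70.5% for Hspa1a, 78.7% for Hspa1b, 50.6% for Dnajb1 and 73.5% for Hsph1, and between 15.02% and 29.6% for the other 4. Thus the inducible members were near the middle or in the upper part of all genes, and the others were in the lower part. In TG alone, the SD of log2 CPM was 0.63 for Hspa1b and 0.99 for Dnajb1, below those of Hspb1 (1.13), Hspa8 (1.07) and Hspa5 (1.09), and in L3-L5 DRG that of Dnajb1 was the lowest of the 8, at 0.37. Differences within ganglia made up 67.5% of the variation of Hspa1a and 47.4% of that of Hspa8, with a median of 71.9% over all genes.

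No member was called at an adjusted p below 0.05 in any of the 6 pairs by edgeR's quasi-likelihood test, with p-values adjusted over all genes tested. In an unadjusted reading, 16 of the 48 tests had p below 0.05. DESeq2's Wald test called 4 of the 48, and these are given below with their pair.

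TG against NG/JG placed all members but Hspb1 on the side of NG/JG, none of them called. The members' median log2 fold change was -1.49, against -0.048 over the 11769 genes tested, of which 0.051% were called. The lowest p was that of Hsph1, with a log2 fold change of -3.16 (SE 0.90) and adjusted p = 0.18, followed by Dnajb1 at -2.51 (SE 0.77, adjusted p = 0.21). Hspa1a, Hspa8 and Hspa5 had log2 fold changes of -2.17, -1.58 and -1.29, with adjusted p between 0.34 and 0.47. Without NG/JG library 4 the log2 fold change became -2.30 for Hsph1, -1.50 for Dnajb1 and -1.35 for Hspa1a. These 5 of 8 had an unadjusted p below 0.05, a share to be read against 10% of all genes. DESeq2 called Hsph1 (log2 fold change -3.24, adjusted p = 0.040) and 6.39% of all genes.

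TG against L3-L5 DRG gave unlike values for the paralogs of HSP70, a difference between them that was not tested. Hspa1b had a log2 fold change of 1.88 (SE 0.57), with adjusted p = 0.12 by edgeR and 0.020 by DESeq2, which called 11.3% of all genes. It was the 1 member with an unadjusted p below 0.05, where 18.2% of 12900 genes had one and 0% passed adjustment. Hspa1a had a log2 fold change of 0.70 (SE 0.67). Hspb1 at 1.23 (SE 0.56, adjusted p = 0.28) and Hspa8 at -1.01 (SE 0.50, adjusted p = 0.32) lay on opposite sides of 0.

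TG against T10-L1 DRG was the pair with most calls over all genes, 5.87% of 12914, and none was a member. Hsph1, at a log2 fold change of -2.48 (SE 0.90, adjusted p = 0.14), and Hspa8, at -1.19 (SE 0.49, adjusted p = 0.19), were the 2 members with an unadjusted p below 0.05, against 21.6% of all genes. Without T10-L1 DRG library 3 the value of Hsph1 became -1.46 (adjusted p = 0.42) and that of Dnajb1 went from -1.36 to -0.73. DESeq2 called Hsph1 (log2 fold change -2.44, adjusted p = 0.045) and 15.4% of all genes. Hspa1b, with 74.0 CPM in TG and 101.6 CPM in T10-L1 DRG on average, had a fitted log2 fold change of -0.048 (SE 0.66).

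**Figure D3:**
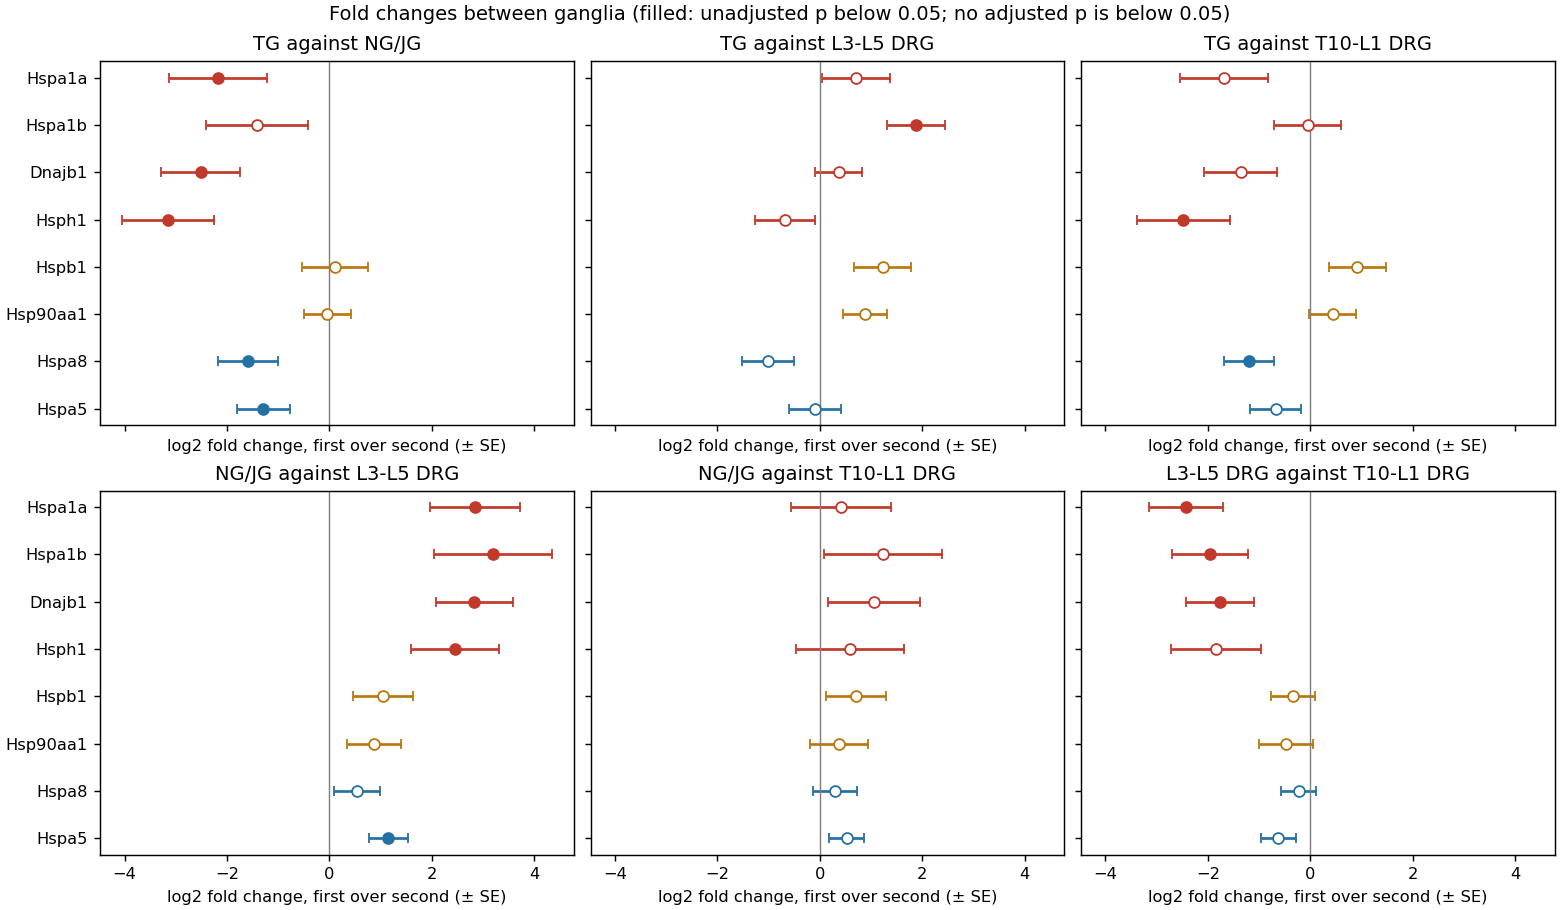
Fitted log2 fold change of each member (first ganglion over second, bars ± SE, n = 4 libraries each) in the 6 pairs. Filled points had an unadjusted p below 0.05. The 4 inducible members lie between 2.45 and 3.20 in NG/JG against L3-L5 DRG and between -2.43 and -1.76 in L3-L5 DRG against T10-L1 DRG.

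NG/JG against L3-L5 DRG placed all 8 members on the side of NG/JG, with a median log2 fold change of 1.80 against 0.0089 over 12240 genes. The log2 fold change was 3.20 (SE 1.15) for Hspa1b, 2.84 (SE 0.88) for Hspa1a, 2.84 (SE 0.75) for Dnajb1 and 2.45 (SE 0.87) for Hsph1. Adjusted p was 0.21 for Dnajb1 and between 0.37 and 0.55 for the other 3 inducible members, and 0% of all genes were called. With Hspa5 (1.15, SE 0.38, adjusted p = 0.44) these made 5 of 8 with an unadjusted p below 0.05, against 6.04% of all genes. DESeq2 called Dnajb1 (log2 fold change 2.88, adjusted p = 0.026) and 5.67% of all genes. NG/JG libraries 1 and 3 were not above the L3-L5 DRG range for Hspa1a, at 667 and 604 CPM, and without library 4 the log2 fold change became 1.93 for Hspa1b, 1.86 for Dnajb1 and 1.63 for Hsph1.

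Between the DRG levels all 8 fitted values were on the side of T10-L1 DRG, and none was called. L3-L5 DRG against T10-L1 DRG gave -2.43 (SE 0.72) for Hspa1a, -1.96 (SE 0.74) for Hspa1b, -1.76 (SE 0.67) for Dnajb1 and -1.84 (SE 0.88) for Hsph1, with adjusted p = 0.79 for all 4. The first 3 had an unadjusted p below 0.05, against 6.07% of 13550 genes, of which 0% were called by edgeR and 0.5% of 15594 by DESeq2, no member among them. Hspa1b became -1.29 without T10-L1 DRG library 2, and Dnajb1 -1.15 without library 3. Hspa8 at -0.22 (SE 0.34) and Hspb1 at -0.33 (SE 0.43) differed by less than their SE.

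NG/JG against T10-L1 DRG showed no member with an unadjusted p below 0.05, against 5.91% of 12430 genes, of which edgeR called 0.0322%. DESeq2 called 6.3% of all genes and no member. All 8 fitted values were on the side of NG/JG, from 0.30 for Hspa8 to 1.24 for Hspa1b, but each was within 2 SE and 5 of them turned when NG/JG library 4 was left out. Across the 4 ganglia together, the F test gave adjusted p = 0.089 for Dnajb1, 0.14 for Hsph1 and 0.18 for Hspa1a, and 0.26 to 0.68 for the other 5, where 3.01% of 14236 genes were called. DESeq2's likelihood-ratio test over the same 4 groups called Dnajb1 (adjusted p = 0.017) and Hsph1 (adjusted p = 0.042), with 12.7% of all genes.

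Leaving out TG library 1, which stood apart from the other TG libraries over all genes, changed the calls in the 3 pairs that hold TG. Against NG/JG, Hspa8 (log2 fold change -2.31, adjusted p = 0.045) and Hspa5 (-2.05, adjusted p = 0.026) were then called, with 2.58% of all genes. Against L3-L5 DRG, Hspa8 (-1.69, adjusted p = 0.014), Hspb1 (1.57, adjusted p = 0.020) and Hspa1b (2.02, adjusted p = 0.041) were called, with 15.2% of all genes. Against T10-L1 DRG the called members were Hspa8 (-1.90, adjusted p = 0.0021), Hspa5 (-1.41, adjusted p = 0.0071), Hsph1 (-3.25, adjusted p = 0.030), Hspb1 (1.25, adjusted p = 0.039) and Hspa1a (-2.62, adjusted p = 0.042), with 26.7% of all genes. Hspa8 was the one member called in all 3, at 3.22 to 4.97-fold lower in TG, and Hspb1 was called as higher in TG in both DRG pairs. Over the 4 ganglia, Hspa5 (adjusted p = 0.013) and Hspa8 (adjusted p = 0.026) were called, with 6.98% of all genes. These calls rest on 3 TG libraries that lay closer to each other than to TG library 1. Their chi-square per gene was 31.6 to 35.3, and the lowest value in any other ganglion was 66.4, for T10-L1 DRG libraries 2 and 3. This measure grows with the number of reads. Those 2 libraries held 10506302 and 12165277 reads on genes, against 5082985 to 5820254 in TG libraries 2 to 4. It therefore cannot say whether the 3 TG libraries were more alike than that pair. Each library was left out in turn, and this one is described because it stood apart in these same data.

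**Figure D4:**
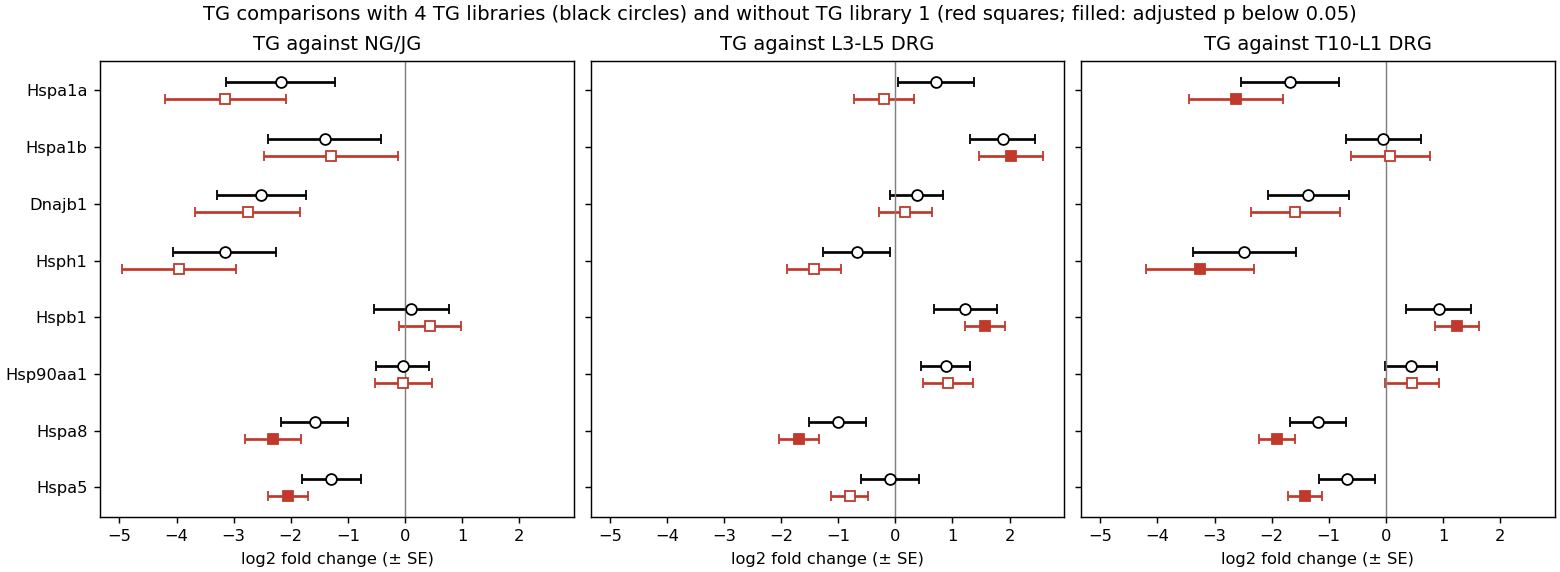
Log2 fold change of each member (± SE) in TG against the other ganglia, with 4 TG libraries (black circles) and with TG library 1 left out (red squares, filled where adjusted p was below 0.05). Hspa8 moved from -1.58 to -2.31 against NG/JG and from -1.19 to -1.90 against T10-L1 DRG.

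The summed inducible members were set against the summed constitutive ones in each library. The log2 ratio was -0.53, 2.41, 1.18 and 3.35 in NG/JG libraries 1 to 4, and 0.97, 3.05, 2.80 and -0.26 in T10-L1 DRG. It ran from 0.24 to 0.84 in L3-L5 DRG and stood at 1.26, 0.62, 2.53 and 0.66 in TG. NG/JG and T10-L1 DRG thus held both the highest and the lowest ratios, and the L3-L5 DRG libraries lay closest together. The means were 1.60 ± 1.68 (SD, n = 4) in NG/JG, 1.64 ± 1.57 in T10-L1 DRG, 1.27 ± 0.89 in TG and 0.57 ± 0.27 in L3-L5 DRG, and every pair of ganglia overlapped. TG library 3 reached its ratio with a low constitutive sum of 263 CPM and an inducible sum of 1518 CPM, while NG/JG library 4 had 1605 and 16421 CPM.

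The libraries with high inducible members were also those with the highest sum of 19 immediate-early genes, which cells transcribe within minutes of a stimulus. That sum was 56324 CPM in NG/JG library 4, 42613 in T10-L1 DRG library 3, 42372 in NG/JG library 2 and 31801 in T10-L1 DRG library 2. The next library was TG library 1, at 26602 CPM, and the lowest were L3-L5 DRG libraries 2 and 3, at 5718 and 3537 CPM. In the 4 libraries with the highest sums, between 32.2% and 32.8% of uniquely aligned reads lay outside genes, and macrophage markers summed to between 140 and 1061 CPM of a range from 25.0 to 16881 CPM. These measures did not set the 4 apart. L3-L5 DRG libraries 2 and 3, with the lowest immediate-early sums, had 32.0% and 32.9% outside genes and macrophage sums of 82.8 and 128 CPM. No immediate-early gene of the 19 was at 0 in any group, and no gene of the list was called by edgeR in any pair. DESeq2 called 3 of them in NG/JG against L3-L5 DRG (5.67% of all genes) and 2 in TG against NG/JG (6.39%). It called 2 between the DRG levels (0.5%) and 1 in TG against T10-L1 DRG (15.4%). In TG against L3-L5 DRG (11.3%) and NG/JG against T10-L1 DRG (6.3%) it called 0. In NG/JG against L3-L5 DRG 15 of 19 had an unadjusted p below 0.05, all higher in NG/JG (6.04% of all genes), and between the DRG levels 12 did, all higher in T10-L1 DRG (6.07%). In TG against NG/JG 10 were lower in TG (10% of all genes), and in TG against T10-L1 DRG 6 were (21.6%). There were 3 higher in TG against L3-L5 DRG (18.2%) and 3 higher in NG/JG against T10-L1 DRG (5.91%). The part of these measures in the chaperone levels was not tested.

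**Figure D5:**
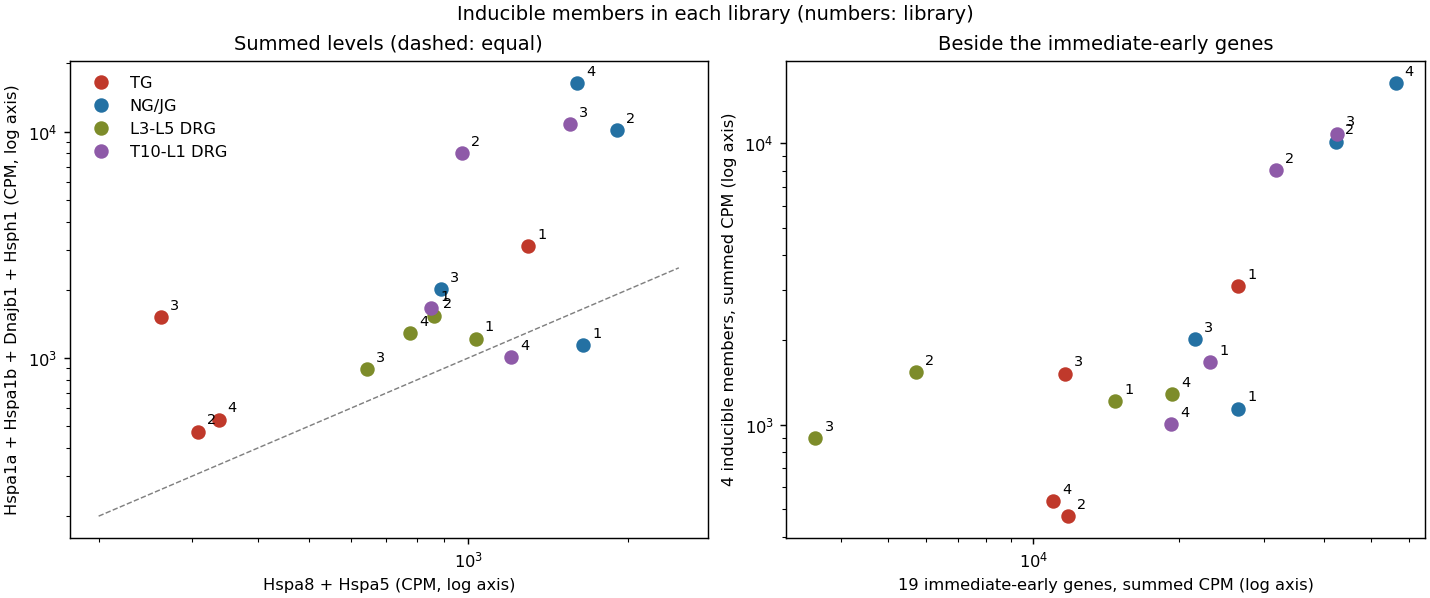
Summed CPM of the 4 inducible members in each library (both axes logarithmic, numbers give the library) against the sum of Hspa8 and Hspa5 (left, dashed line at equality) and against the sum of 19 immediate-early genes (right). NG/JG libraries 2 and 4 and T10-L1 DRG libraries 2 and 3 lie highest in both, and TG libraries 2 to 4 lie at the left of the first panel.

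The genes most like each member over the 16 libraries were ranked by Pearson's r of log2(CPM + 1) after TMM scaling, given as a description of libraries that share ganglion and preparation. Nearest to Hspa1a were Atf3 and Jun (both r = 0.93), stress and immediate-early transcription factors, and Nop58 (0.93), a nucleolar protein. Dnajb1 was nearest to Hsph1 (0.93) and Hspa1a (0.90), and Hsph1 was nearest to Hspd1 (0.93), the mitochondrial HSP60, then Dnajb1. Hspa1b (0.90) and Hsp90aa1 (0.86) were each nearest to Hspe1, the mitochondrial HSP10 that works with Hspd1. The constitutive members had other neighbours, Eif4a2 for Hspa8 (0.94) and Wsb1 for Hspa5 (0.91), and Hspb1 was nearest to Cdkn2d (0.86). Between Hspa1a and Hspb1 r was 0.26, and between Hspb1 and Hspa8 it was -0.16.

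The other chaperones were read from 80 genes in 7 lists, of which 74 to 76 passed the filter in a pair. By edgeR 6 of 76 were called in TG against T10-L1 DRG, 4 higher and 2 lower in TG, which is 7.89% where 5.87% of all genes were called. None was called in the other 5 pairs. The share with an unadjusted p below 0.05 was 17.6% in TG against NG/JG, 25.3% in TG against L3-L5 DRG and 26.3% in TG against T10-L1 DRG, where all genes gave 10%, 18.2% and 21.6%. It was 2.67% to 6.67% in the 3 pairs without TG, where all genes gave 5.91% to 6.07%. DESeq2 called 36 gene and pair combinations, of which 13 of 76 (17.1%) were in TG against T10-L1 DRG, where it called 15.4% of all genes. It called 8% in TG against NG/JG and 17.1% in TG against L3-L5 DRG, where all genes gave 6.39% and 11.3%. In the 3 pairs without TG it called 0% to 2.7%, where all genes gave 0.5% to 6.3%. The share called by edgeR was near that of all genes, so the calls below describe single genes and not the lists. Median log2 fold changes over the 80-gene collection lay between -0.38 and 0.13 in the 6 pairs. In TG against NG/JG that median was -0.38, against -1.49 for the 8 members.

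Small heat-shock proteins held the 2 calls with the largest fold changes. Cryab, the alpha B crystallin, was counted at 3538 ± 1315 (SD, n = 4) CPM in TG and at 859 ± 114 CPM in T10-L1 DRG, a log2 difference of 2.45 (SE 0.40, adjusted p = 0.025). Cryab was lowest in TG library 1, at 1793 CPM against 3314 to 4796 CPM in TG libraries 2 to 4. The satellite glia markers were also lowest within TG in library 1, and their sums in TG, 33846 to 65557 CPM, lay above the 20001 to 30889 CPM of T10-L1 DRG. The 6 oligodendrocyte markers had a mean log2(CPM + 1) of 5.83 to 7.53 in TG and 4.28 to 6.19 in T10-L1 DRG, where 1 of them was at 0. Within TG they ran opposite to Cryab, at 7.53 in library 1 and 5.83 to 6.51 in libraries 2 to 4. The Schwann cell markers did so too, at 54483 CPM in library 1 and 23070 to 36383 CPM in libraries 2 to 4. The part of these markers in the level of Cryab was not tested. Its neighbour Hspb2 was at 92.5 ± 36.8 and 19.9 ± 11.2 CPM (2.63, SE 0.57, adjusted p = 0.033). These were 2 of 5 list members that could be tested, and the summed list ran from 1883 to 5023 CPM in TG against 857 to 1799 CPM in the other ganglia. Hspb8, a partner of Bag3 in the autophagy of misfolded proteins, was at 118 ± 57.7 CPM in TG and 166 ± 54.9 CPM in T10-L1 DRG.

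In the list of nucleotide exchange factors and heat-shock factors, 2 of 13 tested genes were called. Both were higher in TG, and neither is itself such a factor. They were Hsbp1, which binds heat-shock factor 1, at 585 ± 138 and 245 ± 29.9 CPM (1.65, SE 0.30, adjusted p = 0.025), and Stub1, the ubiquitin ligase CHIP that acts on chaperone clients, at 122 ± 30.3 and 58.1 ± 13.3 CPM (1.45, SE 0.34, adjusted p = 0.038). Bag3, the heat-inducible co-chaperone of HSP70, was at 456 ± 268 CPM in T10-L1 DRG and 173 ± 42.5 CPM in TG.

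HSP90 and its co-chaperones had 1 of 11 called, Chordc1, an HSP90 partner, at 33.6 ± 14.0 CPM in TG and 107 ± 11.5 CPM in T10-L1 DRG (-1.34, SE 0.34, adjusted p = 0.046). Hsp90ab1, the constitutive HSP90, was the highest of that list in RPKM and stood between 2628 and 3139 CPM on average in the 4 ganglia. In the ER list 1 of 17 was called, the disulfide isomerase Pdia4, at 56.0 ± 22.6 and 227 ± 57.5 CPM (-1.70, SE 0.35, adjusted p = 0.029). Pdia3, another isomerase, was the most abundant there, at 597 ± 220 CPM in TG and 940.3 ± 238 CPM in T10-L1 DRG.

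By edgeR no gene was called among 16 cytosolic HSP70, HSP110 and HSP40 genes, 6 mitochondrial chaperones and 8 subunits of the TRiC/CCT chaperonin, which folds actin and tubulin. DESeq2 called 2, 5 and 4 gene and pair combinations in these 3 lists, over the 6 pairs. In a single pair it called at most 1 of the 16, 2 of the 6 and 2 of the 8. Over all genes its share was 0.5% to 15.4% by pair. Hspa12a, an atypical HSP70, was at 261 ± 227 CPM in TG and 475 ± 119 CPM in T10-L1 DRG. Hspe1 was at 76.5 ± 6.48 and 72.6 ± 50.4 CPM, and Cct5 at 241 ± 20.5 and 322 ± 51.7 CPM. All 6 calls stood without TG library 1 and under DESeq2. None stood without any one of TG libraries 2 to 4 or T10-L1 DRG libraries 1 to 3, fits in which 0 or 1 of all genes was called in place of 758, and Cryab alone stood without T10-L1 DRG library 4, where 119 were. The log2 fold changes moved little with a library left out, from 2.22 to 2.69 for Cryab, 2.33 to 2.93 for Hspb2 and -1.89 to -1.52 for Pdia4. Without the filter on low counts Chordc1 and Stub1 were lost, and with all 16 libraries in one fit Chordc1, Stub1 and Hspb2. Over all alternatives the adjusted p of Cryab ran from 2.6e-07 to 0.10.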

How the data were processed

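RNA-seq was performed on sorted TdTomato-positive cells of 4 ganglia, 4 libraries each. Per the labels and the study's methods, the authors prepared cDNA by SMART-seq2 with oligo dT, sequenced 50-base single reads on an Illumina HiSeq, made reads with bcl2fastq, aligned them with TopHat2 to mm9 and deposited raw counts per gene from HTSeq-count. Tool versions, the annotation and the strand setting were not given in the sources used here. Reads that HTSeq put on no gene (29.6% to 66.6% of uniquely aligned reads) stayed out of library sizes. 0 sample columns were left out.

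Counts were scaled to CPM, and to RPKM with exon lengths of GENCODE M1 on NCBIM37, the same build as mm9. Each pair was tested on its own 8 libraries with edgeR 4.0.16 (TMM, filterByExpr, glmQLFit, glmQLFTest), and 4 ganglia together by an F test, with Benjamini-Hochberg adjustment over all genes tested and a threshold of 0.05. Alternatives were DESeq2 1.42.0, RLE size factors, no filter, all 16 libraries in one fit, a replicate block and each library left out. Scripts were tested on simulated data. The members and gene lists were chosen with earlier results of these data known. The genes named were the 8 members, list genes called in any pair, the 2 of each list with the highest mean RPKM, and the 3 genes most like each member, of which some are printed. The two-unit promoter motifs were added after the three-unit motif had been searched. The floor of 3 counts covers counting error only, since reads carry no molecular identifiers, while SDs and SEs come from the spread between libraries.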

Additional observations from a re-analysis of the deposited data

Results flagged for a closer look

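In 3 of 32 groups of 4 libraries (8 members in 4 ganglia), 1 library stood far from the others by Dixon's test on CPM. Chance gives about 1 in 20 where values spread normally, and the CPM were not put on a log scale. All 3 were TG library 1, so the 3 flags are not independent. Hsph1 was at 263 CPM there and at 45.8 to 74.2 CPM in TG libraries 2 to 4. Hspa8 was at 221 CPM against 44.3 to 66.1 CPM, and Hspa5 at 1075 CPM against 196 to 288 CPM. The gap to the nearest library was 0.87, 0.88 and 0.90 of the whole range for Hsph1, Hspa8 and Hspa5, each above the critical value of the test for 4 samples.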

How the results depend on the processing

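No member was called under RLE size factors, without the filter, with all 16 libraries in one fit or with the replicate block, in any pair or over the 4 ganglia. DESeq2 called 1 member in TG against NG/JG, TG against L3-L5 DRG, TG against T10-L1 DRG and NG/JG against L3-L5 DRG each, and 2 over the 4 ganglia. With single libraries left out, members called ran from 0 to 2 in TG against NG/JG, 0 to 3 in TG against L3-L5 DRG, 0 to 5 in TG against T10-L1 DRG and 0 to 2 over the 4 ganglia, where leaving out NG/JG library 1 gave 1 call, and stayed at 0 in the other 3 pairs. The other chaperone calls went from 6 to 36 under DESeq2.

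Deviations of same-numbered libraries from their ganglion means correlated at -0.12 to 0.20 over 14236 genes. Libraries of unlike number were not compared, so this does not settle whether the numbers pair the samples. With the replicate block the chaperone calls in TG against T10-L1 DRG went from 6 to 0 and those over all genes from 758 to 0, while log2 fold changes stayed at 2.34 for Cryab, 2.68 for Hspb2, 1.59 for Hsbp1 and -1.71 for Pdia4. Under the block the fold change of Hspa1b turned to 0.0056 in TG against NG/JG, 0.41 in TG against T10-L1 DRG and -0.24 in NG/JG against T10-L1 DRG, that of Hsp90aa1 to 0.14 in TG against NG/JG and that of Hspa1a to -0.044 in NG/JG against T10-L1 DRG. The median over all genes moved too. It went from -0.048 to 0.61 in TG against NG/JG and from 0.022 to -0.65 in NG/JG against T10-L1 DRG. The members named in these 2 pairs turned in the same direction. In TG against T10-L1 DRG the median went from -0.035 to -0.21, while Hspa1b rose. The cause of these shifts was not tested.

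The log2 ratio of inducible to constitutive members, from means of log values, became -1.03 for L3-L5 DRG, 0.0044 for T10-L1 DRG and 0.11 for both TG and NG/JG. Without Hspa1a and Hspa1b it became -0.076 in TG, -0.56 in L3-L5 DRG, 0.51 in NG/JG and 0.13 in T10-L1 DRG, and with Hspb1 and Hsp90aa1 added 0.97 in L3-L5 DRG. With single libraries left out it ran from 0.48 to 0.68 for L3-L5 DRG, 1.17 to 2.27 for T10-L1 DRG, 0.85 to 1.48 for TG and 1.02 to 2.32 for NG/JG.

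Of 48 fold changes, 11 turned with a library left out. In TG against NG/JG, Hspb1 ran from -0.24 to 0.44 and Hsp90aa1 from -0.36 to 0.38. In TG against L3-L5 DRG, Hspa1a ran from -0.20 to 1.02 and Hspa5 from -0.80 to 0.14, and in TG against T10-L1 DRG, Hspa1b from -0.43 to 0.61. In NG/JG against T10-L1 DRG, Hspa1a ran from -0.39 to 0.98, Hspa1b from -0.029 to 1.93, Hsph1 from -0.23 to 1.60, Hsp90aa1 from -0.020 to 0.83 and Hspa8 from -0.13 to 0.53. In L3-L5 DRG against T10-L1 DRG, Hspa8 ran from -0.39 to 0.00080. In TG against NG/JG, Hspb1 also turned to -0.038 under RLE size factors, -0.039 under DESeq2 and -0.035 without the filter, and Hsp90aa1 to 0.054 with all 16 libraries in one fit. These 48 values kept direction in 231 of 240 other fits and in 361 of 384 with a library left out.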
